A study of Rattus norvegicus with 32 samples.

Results

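The cytosolic ribosomal proteins are the protein subunits of the ribosome that translates nuclear-encoded messengers. Their genes were taken by symbol from a table of gene counts in rat gastrocnemius, as those named Rpl, Rps, Rplp or Rpsa with a number and at most an a, l, x or y suffix. The rule found 72 gene identifiers of 12901 in the table, carrying 68 symbols; 43 belonged to the large subunit and 29 to the small subunit. Rpl21, Rpl32, Rps27a and Rps4x each stood on 2 identifiers. All but 1 identifier, the second of Rpl32, passed the filter on low counts, so 71 were tested (42 large, 29 small) among 11594 genes. Rps6, Rplp1, Rplp2, Rpl8 and Rps9 were not analysed here.

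The muscle came from male rats of 20 weeks, chow-fed per the series title, that were either controls or lacked UCP1, the proton channel of brown fat; the labels describe neither the knockout allele nor the strain. Muscle was taken either at room temperature or after 2 weeks of cold at 4 °C. This gave 7 control libraries from room temperature, named control_RT, 7 control libraries from the cold, control_4C, and 9 knockout libraries for each condition, KO_RT and KO_4C. Replicates carry the numbers of the labels; KO_RT replicates 1 and 2 were known by group only, and their numbers are names. Transcripts were counted from their 3′ ends (QuantSeq), and the labels do not make clear whether room-temperature and cold muscles came from different animals, so the p-values measure the spread between these samples. Since the whole muscle was sampled, fewer cells of a type and less RNA per cell cannot be told apart.

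Ribosomal protein messengers are made in step with ribosomal RNA, and many begin with a run of pyrimidines, the 5′ terminal oligopyrimidine tract, through which mTORC1 and its effector Larp1 set how much of each messenger is translated. Levels of these messengers can therefore stay constant while their translation changes, and 3′ counts read only the former. In striated muscle the large subunit has a tissue-specific variant: Rpl3l takes the place of its paralog Rpl3 in mature fibres.

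The windows below show the start of transcription of members named in the results, from 30 bases before the start to 16 bases from it, because the pyrimidine tract is the feature the family is known for. They are RefSeq sequences of the build GRCr8, 5′ to 3′ on the strand of the gene; capitals mark a run of at least 8 C or T that lies within 5 bases of the start.
Rpl3 (chr7:113507975-113508020, minus strand): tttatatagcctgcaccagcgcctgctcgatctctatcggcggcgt
Rpl3l (chr10:14258416-14258461, plus strand): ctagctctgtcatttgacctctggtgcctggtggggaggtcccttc
Rpl4 (chr8:73566447-73566492, plus strand): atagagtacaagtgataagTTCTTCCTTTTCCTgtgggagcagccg
Rpl29 (chr8:115947613-115947658, plus strand): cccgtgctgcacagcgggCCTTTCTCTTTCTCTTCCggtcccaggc
Rps21 (chr3:187724008-187724053, plus strand): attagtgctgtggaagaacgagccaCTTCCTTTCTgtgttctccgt
Rps23 (chr2:23814487-23814532, plus strand): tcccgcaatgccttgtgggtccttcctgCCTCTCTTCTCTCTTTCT
Rpl41 (chr7:1563482-1563527, minus strand): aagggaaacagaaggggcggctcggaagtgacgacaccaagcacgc
Rps3a (chr2:173827027-173827072, minus strand): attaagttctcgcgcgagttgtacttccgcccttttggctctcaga
Rpl11 (chr5:153560787-153560832, minus strand): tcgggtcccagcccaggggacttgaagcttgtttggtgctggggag
In these windows Rpl4, Rpl29, Rps21 and Rps23 held such a run at the annotated start, and Rpl3, Rpl3l, Rpl41, Rps3a and Rpl11 did not. Of the 68 symbols, 52 matched the RefSeq promoter table, with 53 promoters. A run of at least 8 pyrimidines stood at the start of 31 of the 53 promoters (58.5%), against 8.67% of all 33469 promoters of the same length. It was present in 20 of 33 large subunit promoters and in 11 of 20 small subunit promoters. Among members that passed the test in the cold in control rats (described below) 4 of 7 matched promoters held it, and among the other members 27 of 46. The median longest run at the start was 9 bases in the members and 3 bases in all promoters.

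Other motifs were searched on both strands from 250 bases before to 50 bases after the start, each counted whether or not it overlapped another. The ETS-type motif CCGGAAG occurred in 14 of the 53 promoters (26.4%) and in 8.75% of all promoters. GGGCGG, the core of Sp1 sites, occurred in 30 (56.6%, against 33.1%). CACGTG, the E-box bound by Myc, was found in 4 (7.55%, against 6.42%), and TATAAA in 7 (13.2%, against 14.2%). A match describes these letters only, and start sites annotated elsewhere would move the pyrimidine run.

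Library totals ran from 7275508 to 25846976 counts. All 10 skeletal muscle markers looked up were detected in every library. The 10 most abundant genes took 27.7 to 31.6% of counts in control_RT and 23.5 to 25.2% in control_4C, and 26.3 to 29.9% in KO_RT and 23.0 to 25.3% in KO_4C. Libraries also differed in a transcript-loss index, the mean log2 CPM of 17 other genes that fell at least 8 times below their group in KO_RT replicate 3. It ran from 1.43 to 4.05 in control_RT and from 4.71 to 5.16 in control_4C, with no overlap, from 1.27 to 5.26 in KO_RT and from 4.40 to 5.25 in KO_4C. The 4 libraries with the lowest values (control_RT replicates 2 and 3, KO_RT replicates 1 and 3) were left out together as an alternative; they ended at 2.28, and the next library had 2.87, so the index shows no sharp break there. Transcripts of 9 of 12 intestinal epithelial markers, foreign to this tissue, were in the table and none was at 0 in any library; they summed to 791 CPM in control_RT replicate 4 and to 1189 and 922 CPM in control_4C replicates 3 and 6, against 201 to 478 CPM in the other libraries. Summed macrophage and leukocyte markers (11 of 12, none at 0 in any library) were 166 to 286 CPM in control_RT, 254 to 430 in control_4C, 149 to 219 in KO_RT and 219 to 446 in KO_4C. In the cold 5 of these 11 genes rose in control rats and 6 in knockout rats, and of 9 endothelial markers 3 and 4 rose, where 12.4% and 7.49% of all genes did; their part in the results below was not tested.

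Summed over all members, the 4 groups overlapped. Large subunit transcripts took 1.05% ± 0.07 of all counts in control_RT and 1.16% ± 0.11 in control_4C (SD, n = 7 each), and 1.02% ± 0.07 in KO_RT and 1.08% ± 0.04 in KO_4C (SD, n = 9 each). Small subunit transcripts took 0.870% ± 0.067, 0.980% ± 0.105, 0.823% ± 0.057 and 0.928% ± 0.087 in the same order. The range of each group ran into that of the others in both subunits, as the plot of summed shares shows. The ratio of large to small subunit counts lay between 1.18 and 1.24 in control_RT, 1.13 and 1.22 in control_4C, 1.16 and 1.28 in KO_RT, and 1.05 and 1.23 in KO_4C.

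**Figure D1:**
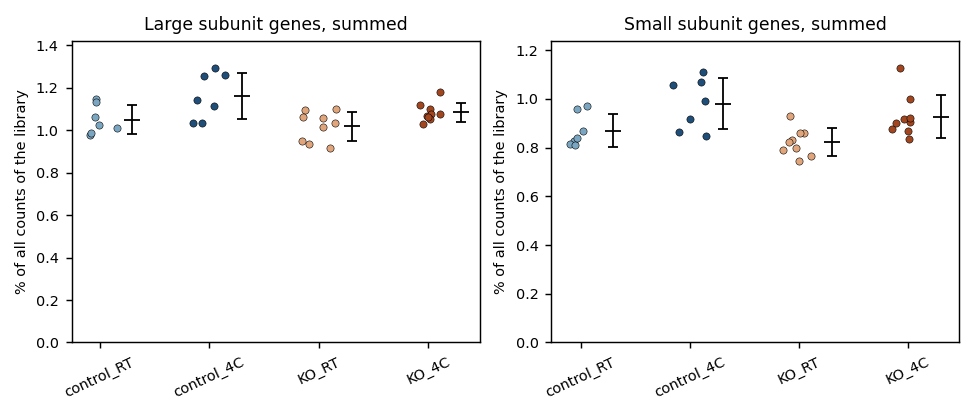
Counts of the large subunit genes (left) and small subunit genes (right), each as a percentage of all counts of a library. Each point is 1 library, the horizontal mark the group mean and the bar the SD; the 4 groups overlap in both panels.

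These raw shares and the values scaled between libraries are not the same measure. A smaller share of counts in the 10 most abundant genes leaves a larger share to all others, and scaling by trimmed means (TMM) takes that into account. With TMM, the median log2 difference between cold and room temperature in control rats was -0.05 over the large subunit and 0.02 over the small subunit, beside 0.03 over all genes. Scaled by library totals alone, the medians were 0.11, 0.17 and 0.19, so the sign of the large subunit median depended on the scaling while both subunits stayed below the median of all genes. In knockout rats the medians were -0.01 and 0.03 with TMM, beside 0.01 over all genes, and 0.07 and 0.11 by library totals, beside 0.10. All values below are CPM, counts scaled to a common library total with TMM factors.

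In control rats, 8 ribosomal protein genes rose and 2 fell in the cold (edgeR quasi-likelihood test, Benjamini-Hochberg adjusted p under 0.05 over all genes tested). That is 14.1% of the 71 tested, where 20.7% of all genes passed, 12.4% upwards and 8.28% downwards. Because ribosomal protein genes are mostly well expressed, the share was also taken among genes of at least 10 CPM, where 9 of 59 members passed (15.3%) beside 27.5% of 5919 genes. The large subunit gave 5 higher and 2 lower of 42, and the small subunit gave 3 higher and 0 lower of 29. Most members moved little: 63 of 71 (88.7%) lay within 0.5 of 0 on the log2 scale, as did 75.3% of all genes. By sign, 34 were above and 37 below 0, beside 6174 and 5420 of all genes. The 2 control groups did not overlap for 3 members (Rpl3, Rpl15 and Rps13), beside 5.75% of all genes.

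In knockout rats, 1 member rose (Rpl3) and 1 fell in the cold, 2.82% of 71, where 13.8% of all genes passed the same test, 7.49% upwards and 6.28% downwards. The medians lay near 0 in both subunits, and 68 of 71 members (95.8%) lay within 0.5 of 0 on the log2 scale, beside 84.9% of all genes. No member had groups without overlap, beside 1.66% of all genes. Rpl3 was the only member to pass upwards in both genotypes, and no member passed downwards in both.

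**Figure D2:**
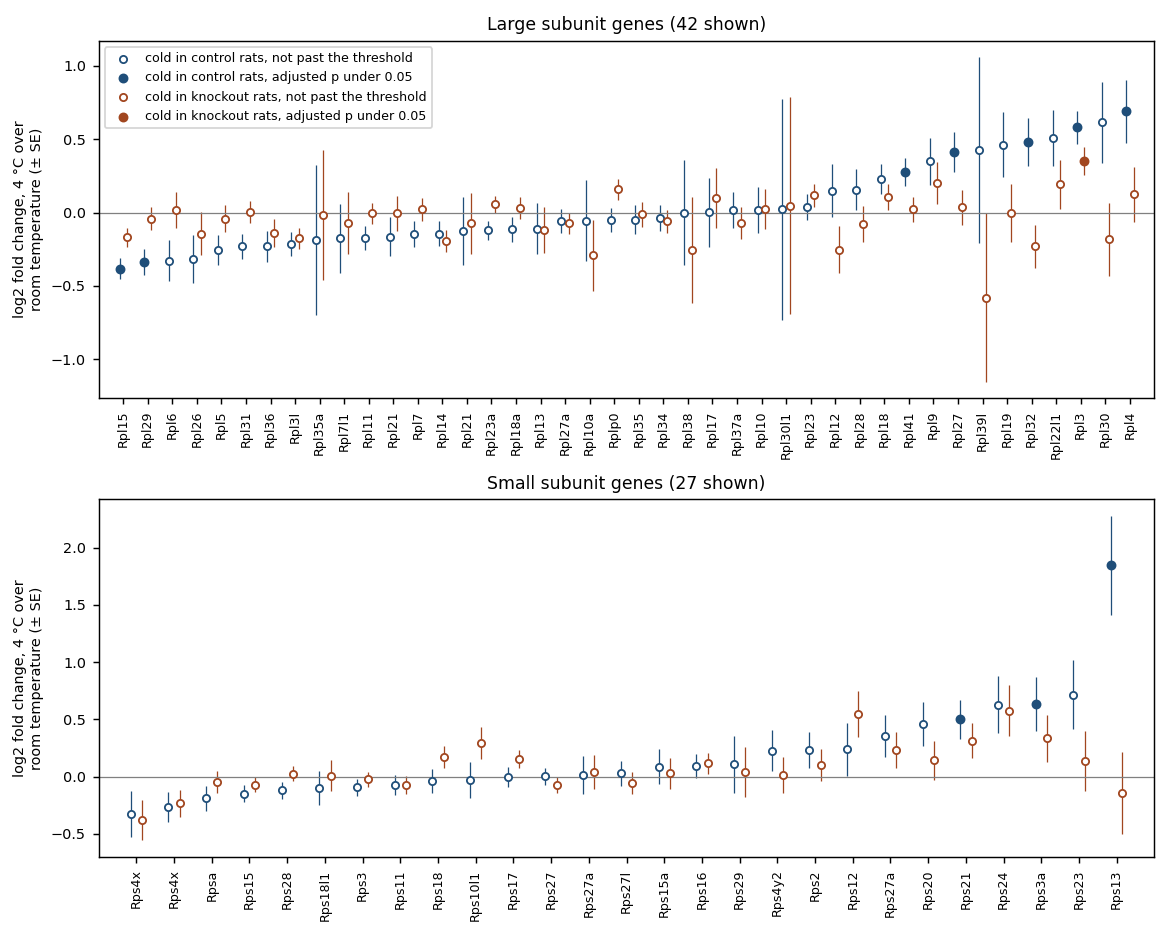
Log2 fold change of CPM, 4 °C over room temperature, for 42 members of the large subunit (top) and 27 of the small subunit (bottom), in control rats (blue) and knockout rats (brown). Points are edgeR estimates, bars are ± SE and filled points passed the adjusted threshold of 0.05; most open points lie within 0.5 of 0, Rpl3 is filled in both colours and Rps13 lies highest at 1.85 in control rats.

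Rpl3 (ENSRNOG00000016896) encodes the large subunit protein next to the peptidyl transferase centre. Its level was 75.9 CPM in the lowest, 87.3 in the median and 92.8 in the highest control_RT library, and 117, 131 and 147 CPM in control_4C. All cold control libraries lay above all room-temperature ones. The log2 fold change was 0.58 ± 0.11 (SE; adjusted p = 0.000354, edgeR quasi-likelihood test). In knockout rats the values were 62.5, 90.8 and 119 CPM at room temperature and 94.6, 114 and 148 CPM in the cold, and these groups overlapped. Their log2 fold change was 0.35 ± 0.10 (adjusted p = 0.0119), with 9 of 9 cold libraries above the room-temperature mean. The difference between the 2 cold responses was -0.23 ± 0.15 (adjusted p = 0.526).

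Rpl3 rose in control rats in every fit with 1 library left out, and its log2 fold change was 0.56 (adjusted p = 0.00035) without the 4 libraries of lowest index. With the transcript-loss index as a covariate it was 0.35 (adjusted p = 0.104); since the index did not overlap between the 2 control groups, temperature and index cannot be told apart there. In knockout rats it was 0.29 with the index (adjusted p = 0.0236), but 0.25 without the 4 libraries (adjusted p = 0.0707) and 0.34 with the knockout groups fitted alone (adjusted p = 0.0506).

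Rpl3l (ENSRNOG00000014641), the muscle variant, did not pass the test in either genotype. Its lowest, median and highest values were 637, 673 and 742 CPM in control_RT and 460, 559 and 716 CPM in control_4C. The log2 fold change was -0.21 ± 0.08 (adjusted p = 0.0558, edgeR quasi-likelihood test), with 6 of 7 cold libraries below the room-temperature mean. In knockout rats the values were 617, 672 and 737 CPM at room temperature and 542, 576 and 703 CPM in the cold, with a log2 fold change of -0.17 ± 0.07 (adjusted p = 0.102). The control difference lay close to the threshold and passed it in 14 of the 32 fits that left out 1 library, the knockout difference in 1. The control difference also passed with RLE factors (adjusted p = 0.0445, edgeR) and with halved counts (adjusted p = 0.0361, edgeR). DESeq2 called Rpl3l lower in the cold in control rats (-0.22, adjusted p = 0.0271) and in knockout rats (-0.19, adjusted p = 0.043).

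The ratio of Rpl3l to Rpl3 within a library does not depend on how libraries are scaled. Its log2 value, with 0.5 added to each count, was 2.99 ± 0.14 in control_RT (range 2.83 to 3.25) and 2.18 ± 0.33 in control_4C (1.65 to 2.55). It was 2.93 ± 0.36 in KO_RT (2.45 to 3.46) and 2.38 ± 0.28 in KO_4C (1.94 to 2.77). The ratio fell in the cold in both genotypes, by 0.81 in control rats, where the groups did not overlap (exact permutation test, two-sided, p = 0.000583, the smallest this design allows; adjusted over 4 comparisons p = 0.00233), and by 0.54 in knockout rats (exact p = 0.00263, adjusted p = 0.00527), where the groups overlapped. All 7 and all 9 cold libraries lay below the mean of their room-temperature group. The transcript-loss index did not overlap between the control groups either, so temperature and index cannot be told apart there. KO_RT replicates 1 and 3, of lowest index in their group, had its highest ratios, 3.46 and 3.36. Control_RT replicates 2 and 3, lowest in theirs, had 2.94 and 3.10, below the 3.25 of replicate 7. The index was not run as a covariate on the ratio.

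Between genotypes the ratio differed by -0.06 at room temperature (exact permutation test, p = 0.661) and by 0.20 in the cold (p = 0.205, adjusted p = 0.273). The values set groups against each other only; counts from 3′ ends of 2 different messengers do not give the share of each protein in the ribosome. Without the 4 libraries of lowest transcript-loss index the ratio differed by -0.79 in control rats (adjusted p = 0.0101) and -0.40 in knockout rats (adjusted p = 0.0226, exact permutation tests). Without the 3 libraries richest in intestinal transcripts the control difference was -0.69 (adjusted p = 0.00527).

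**Figure D3:**
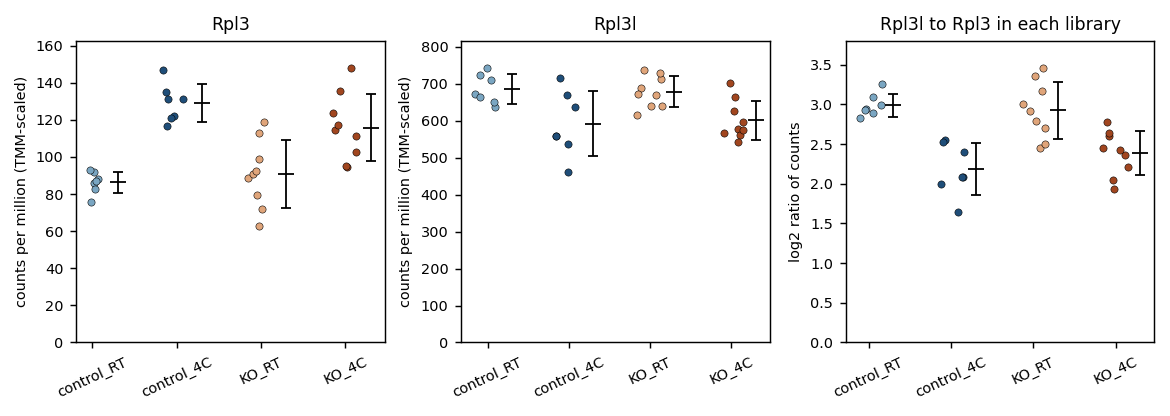
Rpl3 (left) and Rpl3l (middle) in TMM-scaled CPM, and the log2 ratio of their counts within each library (right). Each point is 1 library, the horizontal mark the group mean and the bar the SD; in control rats the cold libraries lie above all room-temperature libraries for Rpl3 and below them for the ratio.

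Of the other large subunit members that rose in the cold in control rats, Rpl4 (ENSRNOG00000009378), whose protein lines part of the exit tunnel, had the largest log2 fold change, 0.69 ± 0.21 (adjusted p = 0.0203, edgeR quasi-likelihood test). It ran from 103 through a median of 170 to 267 CPM in control_RT and from 226 through 304 to 347 CPM in control_4C, with overlap between the groups. In knockout rats the medians were 281 and 271 CPM. Rpl27 (ENSRNOG00000020674) had 426, 537 and 656 CPM in control_RT and 636, 728 and 775 CPM in control_4C as lowest, median and highest values, a log2 fold change of 0.41 ± 0.14 (adjusted p = 0.0278). In KO_RT its 2 lowest libraries were replicates 1 and 3.

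Rpl32 (ENSRNOG00000010746) was at 7.49, 9.82 and 14 CPM in control_RT and 12.1, 13.3 and 21.3 CPM in control_4C, with a log2 fold change of 0.48 ± 0.17 (adjusted p = 0.0344, edgeR). Rpl41 (ENSRNOG00000042233), which encodes a very short basic protein, was at 281, 354 and 416 CPM and then at 343, 438 and 479 CPM, with a log2 fold change of 0.28 ± 0.10 (adjusted p = 0.0357) and 6 of 7 cold libraries above the room-temperature mean. The groups overlapped for both genes. The same holds for Rpl22l1, the paralog of Rpl22, at 22.5 to 43.2 CPM against 37.3 to 57.2 CPM, which missed the threshold with a log2 fold change of 0.51 ± 0.19 (adjusted p = 0.0543).

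In the small subunit Rps13 (ENSRNOG00000028021) showed the largest difference of all members in control rats. It was counted at 0.167, 1.52 and 2.46 CPM in control_RT (lowest, median, highest) and at 3.53, 4.37 and 6.77 CPM in control_4C, with no overlap and a log2 fold change of 1.85 ± 0.43 (adjusted p = 0.00259, edgeR). These are low values for a ribosomal protein messenger, and its counting is uncertain, since reads may be shared with near-identical copies elsewhere in the genome. In knockout rats it ran from 0.371 through 4.51 to 6.16 CPM at room temperature and from 1.20 through 3.34 to 5.09 CPM in the cold. The knockout difference was -0.14, and the difference between the responses was -1.99 ± 0.56 (adjusted p = 0.13, edgeR).

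Rps21 (ENSRNOG00000060449) was at 153, 257 and 356 CPM in control_RT and at 300, 348 and 463 CPM in control_4C, a log2 fold change of 0.50 ± 0.17 (adjusted p = 0.0342, edgeR). Rps3a (ENSRNOG00000011893) was at 27.2, 48.3 and 78.6 CPM and then at 58.9, 80.3 and 101 CPM, a log2 fold change of 0.63 ± 0.23 that passed narrowly (adjusted p = 0.0497). The 2 groups overlapped for each gene. The call of Rps3a ended in 19 of the 32 fits that left out 1 library, that of Rps21 in 6, of Rpl27 in 5, of Rpl32 in 6 and of Rpl41 in 10, and those of Rpl3, Rps13 and Rpl4 in none.

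The number of members that rose changed when libraries were left out and when the index was added as a covariate, as did the number of all genes. Without the 4 libraries of lowest transcript-loss index 4 members passed upwards and 3 downwards (9.86%, beside 16.9% of all genes). Those upwards were Rpl3, Rps13, Rpl27 and Rpl32. The call of Rpl4 ended there (0.48, adjusted p = 0.0641, edgeR), and with 1 library left out its adjusted p reached 0.0495. With the index as a covariate 0 passed upwards and 1 downwards (1.41%, beside 3.69% of all genes). With the covariate Rpl27 changed sign, to -0.09 (adjusted p = 0.676, edgeR), and the log2 fold changes of Rps13 and Rpl4 were 0.14 (adjusted p = 0.885) and 0.06 (adjusted p = 0.903). Without the 3 libraries richest in intestinal transcripts, left out after seeing the data, 5 members passed in each direction (14.1%, beside 17.5% of all genes).

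Both members that fell in control rats belong to the large subunit. Rpl15 (ENSRNOG00000008140) was at 217, 256 and 262 CPM in control_RT and at 162, 190 and 212 CPM in control_4C, with no overlap. Its log2 fold change was -0.38 ± 0.07 (adjusted p = 0.000441, edgeR). It passed the test in every alternative run, the index as a covariate included (-0.35, adjusted p = 0.0288), and in each fit without 1 library. In knockout rats the values were 186, 220 and 233 CPM against 172, 188 and 227 CPM, with a log2 fold change of -0.17 (adjusted p = 0.0828).

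Rpl29 (ENSRNOG00000011138), known also as a heparin-binding protein, was at 90.2, 107 and 112 CPM in control_RT and at 68.9, 84.5 and 90.3 CPM in control_4C. The highest cold library lay just above the lowest room-temperature one, so the groups barely overlapped. Its log2 fold change was -0.34 ± 0.09 (adjusted p = 0.00583, edgeR). The call ended when libraries were scaled by their totals (-0.18, adjusted p = 0.0586) and with the index as a covariate (-0.27, adjusted p = 0.16).

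**Figure D4:**
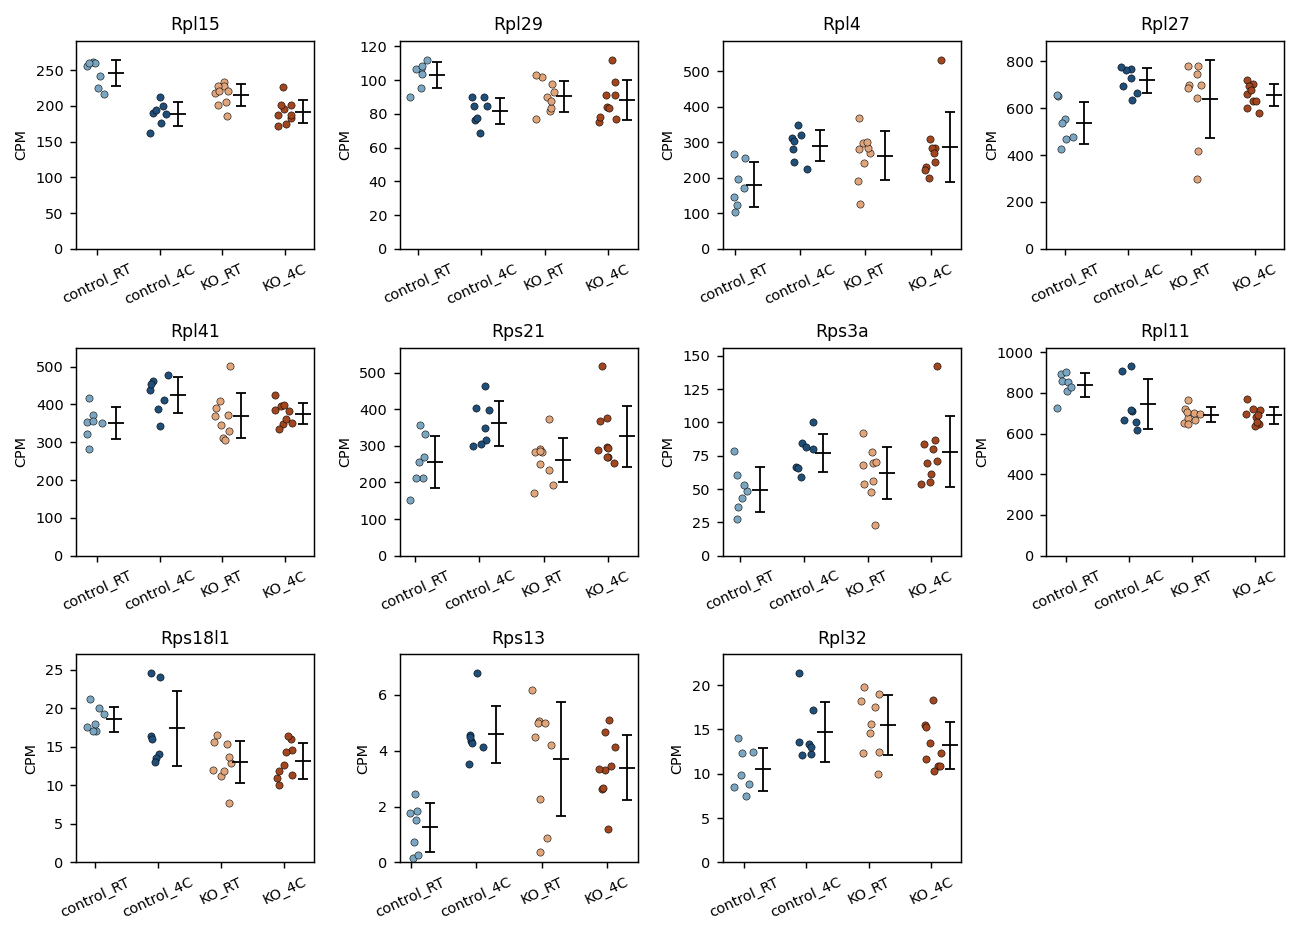
TMM-scaled CPM of 11 members that passed the test in at least 1 comparison, by group. Each point is 1 library, the horizontal mark the group mean and the bar the SD; each vertical axis starts at 0, and Rpl15 is lower in all cold control libraries than in any control_RT library.

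At room temperature, 2 members were higher and 2 lower in knockout than in control muscle, 5.63% of 71, beside 2.61% of all genes (2.35% higher, 0.259% lower). The median log2 difference was -0.09 in the large and -0.05 in the small subunit, beside 0.00 over all genes. Below 0 were 46 of 71 members, beside 5735 of all 11594 genes. This comparison and the cold response of control rats use the same control_RT libraries. Rps13, described above, was higher by 1.55 ± 0.42 on the log2 scale (adjusted p = 0.0357, edgeR) and Rpl32, at 10, 15.6 and 19.8 CPM in KO_RT, by 0.56 ± 0.16 (adjusted p = 0.0408). Both groups overlapped for both genes.

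Rpl11 (ENSRNOG00000026260) was lower in the knockout. With Rpl5 it binds Mdm2, the ubiquitin ligase of p53, when ribosome assembly is disturbed. Its level was 727, 855 and 902 CPM in control_RT and 648, 698 and 767 CPM in KO_RT, a log2 difference of -0.28 ± 0.08 (adjusted p = 0.0373, edgeR), with 9 of 9 knockout libraries below the control mean. Rpl5 itself was at 333 to 507 CPM in control_RT and 283 to 399 CPM in KO_RT and did not pass (-0.23 ± 0.10, adjusted p = 0.203). Rplp0, the base of the ribosomal stalk, was at 303 to 406 against 265 to 329 CPM (-0.26 ± 0.08, adjusted p = 0.0572).

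Rps18l1 (ENSRNOG00000033152), a copy of Rps18 whose reads may be shared with its parent, was the member without overlap between genotypes, beside 0.104% of all genes. It was at 17.0, 17.9 and 21.2 CPM in control_RT and at 7.74, 12.9 and 16.6 CPM in KO_RT, a log2 difference of -0.51 ± 0.14 (adjusted p = 0.0408, edgeR). In the cold the values were 13.1 to 24.5 CPM in control_4C and 10.1 to 16.4 CPM in KO_4C (-0.40, adjusted p = 0.138). These 4 calls were sensitive to single libraries, since leaving out 1 library ended that of Rps13 in 9 fits, of Rpl32 in 10, of Rpl11 in 11 and of Rps18l1 in 10. With the control_RT and KO_RT groups fitted alone, 0 members passed, and 0 of all genes did. All 4 calls also ended with a replicate block and with the transcript-loss index as a covariate. With the covariate the log2 difference of Rps13 was 0.07 (adjusted p = 0.96, edgeR), of Rpl32 0.31, of Rpl11 -0.21 and of Rps18l1 -0.48. Scaling by library totals ended those of Rpl11 and Rps18l1. Without the 4 libraries of lowest index all 4 passed.

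In the cold, no member passed between genotypes, beside 0.0518% of all genes (0.0345% higher, 0.0173% lower), and no member had groups without overlap, beside 0.0949% of all genes. An unadjusted p under 0.05 was reached by 8 members (11.3%), beside 14.6% of all genes, and DESeq2 called 3 (4.23%), all lower in the knockout, beside 3.76% of all genes. The median log2 difference was -0.07 in the large and -0.09 in the small subunit, beside 0.02 over all genes. Below 0 were 49 of 71 members, beside 5414 of all 11594 genes. The nearest to the threshold were Rpl12 and Rpl30. Rpl12, part of the stalk base, was at 21.1 to 55.4 CPM in control_4C and 17.2 to 28.2 CPM in KO_4C (-0.69 ± 0.17, adjusted p = 0.0531, edgeR), and Rpl30 at 6.48 to 16.1 against 3.28 to 9.69 CPM (-0.94 ± 0.26, adjusted p = 0.064).

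Some control libraries stood out for several of these genes. Control_4C replicates 3 and 6, the libraries with 1189 and 922 CPM of intestinal transcripts, had Rpl12 at 55.4 and 55.1 CPM, while the other 5 libraries of the group ran from 21.1 to 30.5 CPM. They had Rpl11 at 929 and 907 CPM against 619 to 717 CPM, and Rps18l1 at 24.1 and 24.5 CPM against 13.1 to 16.3 CPM. In control_RT replicate 4, with 791 CPM of intestinal transcripts, Rpl12, Rpl11 and Rps18l1 also had the highest value of the group (42.5, 902 and 21.2 CPM). It did not stand apart there, since libraries with 356 CPM of intestinal transcripts came close. Replicate 2 had Rpl12 at 41.4 and Rpl11 at 895 CPM, and replicate 3 had Rps18l1 at 20.0 CPM. The part of these transcripts in the values was not tested. Without the 3 libraries Rpl11 passed in the cold in control rats (-0.30, adjusted p = 0.00617, edgeR).

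For the cold response of the knockout minus that of the control, no member passed, beside 0.0259% of all genes (0.00863% higher, 0.0173% lower). An unadjusted p under 0.05 was reached by 7 members (9.86%), beside 12.9% of all genes, and DESeq2 called 1, beside 0.966% of all genes. Without the 4 libraries of lowest transcript-loss index 3 members passed (4.23%), all with a negative difference, beside 2.42% of all genes. A call in control rats and none in knockout rats, as for Rpl4, Rpl15 or Rps21, was not by itself a tested difference between the genotypes.

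Beside the differences between groups, members varied together from library to library within a group. Of the 59 members at 10 CPM or more, 17 were at least 1.5 times above their group median in KO_4C replicate 7, 8 of the large and 9 of the small subunit. That is 28.8%, beside 6.37% of the 5919 genes at that level. In the opposite direction 17 were at least 1.5 times below it in KO_RT replicate 3 (28.8%, beside 12.9% of genes), and 12 in control_RT replicate 2 (20.3%, beside 8.36%). All 12 members low in control_RT replicate 2 were also low in KO_RT replicate 3 (70.6% of the 17 there). Of those 12, 10 were high in KO_4C replicate 7 (58.8% of its 17): Rpl4, Rpl13, Rpl17, Rpl19, Rps3a, Rps20, Rps21, Rps23, Rps24 and Rps27a. The overlap between libraries was counted for members only. The same overlap over all genes was not counted, so it is not known whether that of the members is larger.

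Rps24 was one of these members. It was at 227 CPM in control_RT replicate 2 and 241 CPM in KO_RT replicate 3, at 1652 CPM in KO_4C replicate 7, and at 619 CPM in the median KO_4C library. Rps23 followed the same pattern, at 20.9, 33.6 and 179 CPM in the same 3 libraries, and a median of 97.1 CPM in KO_4C. Rps24 missed the threshold in the cold with log2 fold changes of 0.63 ± 0.25 in control rats (adjusted p = 0.0744, edgeR) and 0.57 ± 0.22 in knockout rats (adjusted p = 0.0829), and so did Rps23 in control rats (0.72 ± 0.30, adjusted p = 0.0872). Replicate 7 of KO_4C had the highest value of its group for 38 of the 71 members. Its transcript-loss index, 5.25, was the highest of the group. KO_4C replicate 4 (index 5.17) and KO_RT replicate 5 (5.26) had 0 members at least 1.5 times above their group median. At the low end, control_RT replicate 3 (2.18) had 1 member at least 1.5 times below it (1.69%, beside 2.30% of genes). KO_RT replicate 1 (2.28) had 9 (15.3%, beside 19.4% of genes). The part of what the index follows in these swings was not tested.

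**Figure D5:**
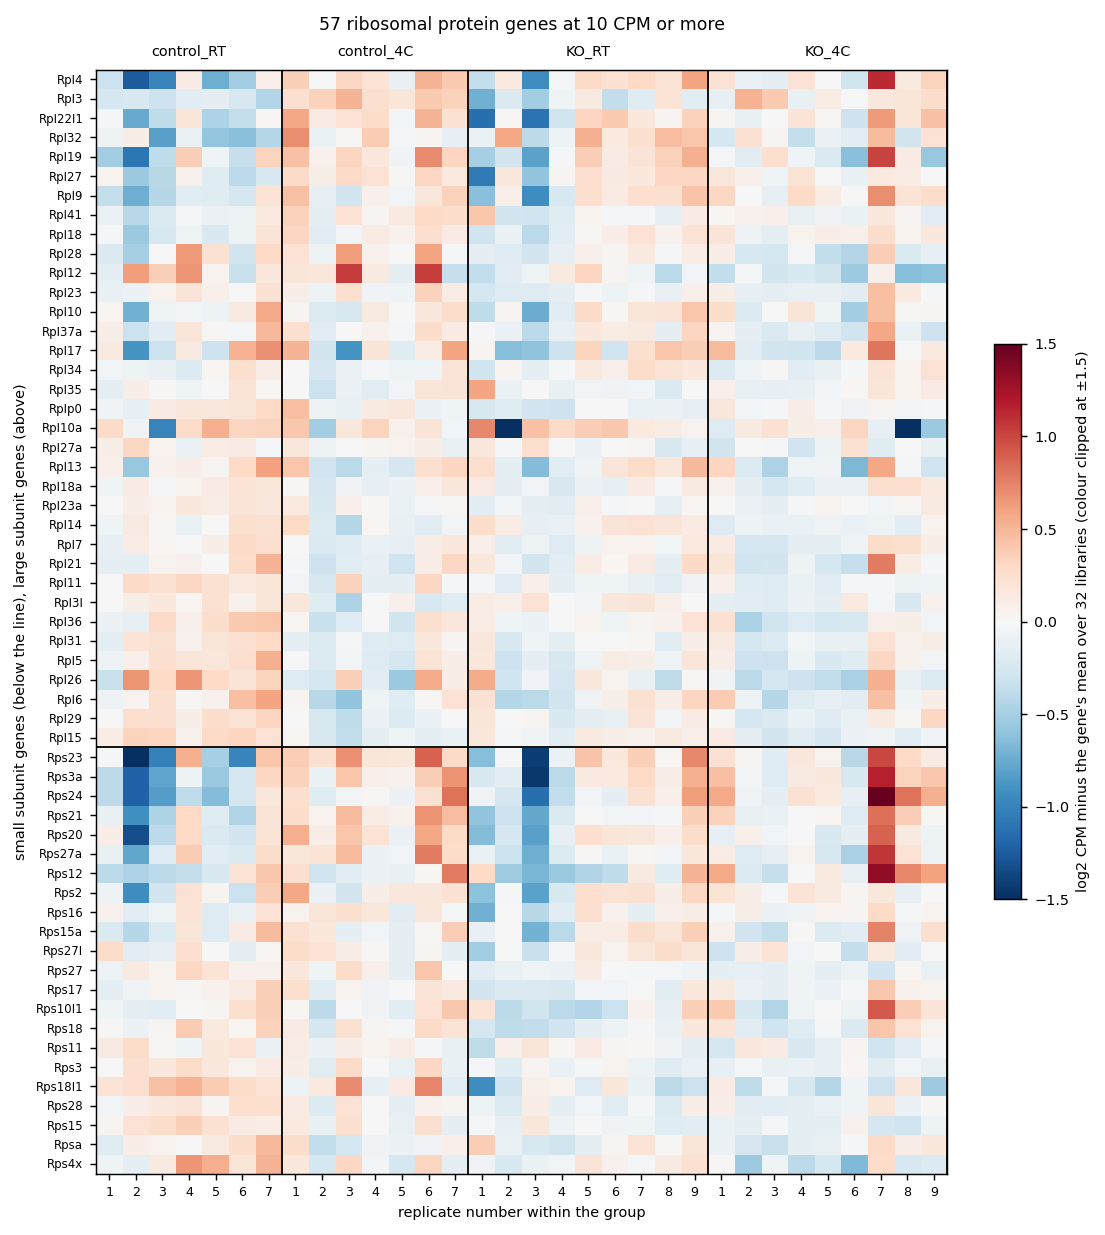
Level of 57 of the 59 members at 10 CPM or more (lines) in each of the 32 libraries (columns, by group and replicate), as log2 CPM minus the mean of that gene over all libraries; red is above the mean and blue below it, with colours clipped at 1.5. Rps23, Rps24, Rps3a and Rpl4 are blue in control_RT replicate 2 and KO_RT replicate 3 and red in KO_4C replicate 7, while members such as Rps15 and Rpl23a stay pale throughout.

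Rpl10a varied in another way. It lay between 64.5 and 121 CPM in 27 of the 32 libraries, and in the remaining 5 it was at 36.9 CPM (control_RT replicate 3), 51.3 CPM (control_4C replicate 2), 18.1 CPM (KO_RT replicate 2), 21.5 CPM (KO_4C replicate 8) and 50.1 CPM (KO_4C replicate 9). These libraries spread over all 4 groups, and Rpl10a passed in no comparison.

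Several members taken in by the rule are paralogs with an l in the symbol. Rps27l was at 113 to 153 CPM in control_RT and 114 to 153 CPM in control_4C, and its parent Rps27 at 438 to 575 and 420 to 615 CPM; neither passed in any of the 5 comparisons. Rps10l1 was at 346 to 495 and 293 to 508 CPM in the same groups, and Rpl7l1 at 4.27 to 7.16 and 2.52 to 7.11 CPM, again without a call, and Rpl39l and Rpl30l1 had none either. Rpsa, a small subunit protein also known as the laminin receptor, was at 502 to 797 and 439 to 681 CPM (-0.19 ± 0.11, adjusted p = 0.229, edgeR). For members with many processed copies in the genome, among them Rpl21, Rps27a and Rps4x with 2 identifiers each, the counting could split reads between copies.

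Fau and Rack1 are ribosomal proteins whose symbols the rule does not take in. Rack1 fell in the cold in control rats, and neither passed in knockout rats. Rack1, a signalling scaffold on the small subunit, went from 794 ± 56.4 CPM (SD, n = 7) to 647 ± 60.4 CPM (n = 7), a log2 fold change of -0.29 ± 0.07 (adjusted p = 0.00432, edgeR).

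The lists of other translation genes are read beside the 20.7% of all genes that passed in control rats and the 13.8% in knockout rats. The alternative settings were not read for single genes of these lists. With the transcript-loss index as a covariate, 3.69% of all genes passed in the cold in control rats. Which genes of the lists were among them was not looked at. Elongation factors, tested as 11 genes, gave 1 higher and 2 lower in control rats (27.3%) and 0 higher and 2 lower in knockout rats (18.2%). Eef2k, the kinase that inhibits elongation factor Eef2, fell in both (-0.53, adjusted p = 0.000904, edgeR, and -0.38, adjusted p = 0.00805). Eef1a2, the form used by adult muscle, fell in knockout rats (-0.30 ± 0.09, adjusted p = 0.0141, edgeR), and Eef1d in control rats (-0.32, adjusted p = 0.0453). Eef1a1 rose in control rats (1.09 ± 0.36, adjusted p = 0.0267) at 1.18 and 2.56 CPM, low values for a gene with many processed copies, whose counting is uncertain.

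Initiation factors, 36 tested, gave 2 higher and 6 lower in control rats (22.2%) and 1 higher and 4 lower in knockout rats (13.9%), shares near those of all genes (20.7% and 13.8%). Eif4b, which aids the helicase that unwinds messengers, fell in both (-0.35, adjusted p = 0.00538, edgeR, and -0.60, adjusted p = 2.46e-06), and Eif4g1, the scaffold of the cap complex, in knockout rats (-0.54). Eif4g3, the scaffold paralog, rose in control rats from 106 to 201 CPM (0.92 ± 0.17, adjusted p = 0.000366, edgeR). It was higher in knockout than control muscle at room temperature (0.83, adjusted p = 0.00936). That call ended with the control_RT and KO_RT groups fitted alone, where 0 of all genes passed.

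Among 58 ribosome biogenesis genes, 8 rose and 6 fell in control rats (24.1%, beside 20.7% of all genes) and 0 rose and 2 fell in knockout rats (3.45%, beside 13.8%). Sbds, which releases Eif6 from new large subunits, rose in control rats from 22.1 to 69.8 CPM (1.65 ± 0.29, adjusted p = 0.000249, edgeR). It was higher in the knockout at room temperature (1.27, adjusted p = 0.013), a call that also ended with the 2 room-temperature groups fitted alone. Both comparisons use the control_RT libraries, whose transcript-loss index was low, and the part of the index in them was not tested. Noc4l, a small subunit assembly factor, fell in control rats from 36.3 to 25.5 CPM (-0.51, adjusted p = 0.000814). Of 10 genes of ribosomal RNA transcription, Taf1b, a subunit of the selectivity factor of RNA polymerase I, rose in control rats from 0.789 to 2.67 CPM (1.75, adjusted p = 0.000366), and 0 passed in knockout rats.

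Genes that control mTORC1 and pyrimidine-tract translation, 29 tested, gave 2 higher and 6 lower in control rats (27.6%, beside 20.7% of all genes) and 1 higher and 5 lower in knockout rats (20.7%, beside 13.8%). Larp1, which binds the pyrimidine tract, fell in both (-0.50, adjusted p = 0.0327, and -0.76, adjusted p = 0.000601, edgeR). Eif4ebp1, an inhibitor of cap-dependent initiation, fell in control rats (-0.36, adjusted p = 0.0187), and Rps6kb1, the kinase of Rps6, in knockout rats (-0.51, adjusted p = 0.0061). Ddit4, an inhibitor of mTORC1, rose in knockout rats (0.75). In these translation and ribosome lists 0 genes passed between genotypes in the cold or for the difference of the responses.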

How the data were processed

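Gastrocnemius RNA (500 ng per sample, Trizol) was sequenced as QuantSeq 3′ libraries with 50 bp forward reads, per the labels' protocols. The authors deposited raw counts per Ensembl gene, and a normalised signal that the deposited table gives as each count divided by 1 size factor per library (0.523 to 2.06); the signal was used only for gene symbols and that check. Per the submitters' processing notes, R 3.4.3, DESeq2 1.18.1 and the build Rnor_6.0 were used; aligner and counter: not given in the sources used here. Summed over libraries, the lowest gene had 96 counts, and 0 values were odd, so counting precision may be lower than the totals say. No 2 libraries of a group were duplicates (chi-square over degrees of freedom at least 11.4). The columns of 2 KO_RT libraries carry a number that stands in the title of one sample and the description of another, so they were mapped to the group only.

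Counts were fitted in edgeR 4.0.16 (R 4.3.3) after filterByExpr (minimum count 10), with TMM factors and 1 mean per group for the whole set of 32 libraries, and each comparison was tested with the robust quasi-likelihood F test, adjusted by Benjamini-Hochberg over the 11594 genes tested (threshold 0.05). The SE is the absolute log2 fold change over the square root of F. On simulated counts for the cold contrast in control rats, over 11461 genes, 38% of 100 genes changed 1.5-fold and 68% of 100 changed 2-fold were called, with 1 false call of 107. These counts were drawn for each gene independently, without the shift in the most abundant genes, the low-index libraries or the shared swings of the real libraries. The figures therefore need not hold for the real counts. The Rpl3l to Rpl3 ratio was tested by exact permutation over samples. Promoters were RefSeq windows of GRCr8; no coordinates were carried to the build of the counts.

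Named members were, per pairwise comparison and direction, up to 8 past the threshold with the smallest p, up to 4 for the interaction, and always the paralogs with an l in the symbol, their parents, Rplp0 and Rpsa; per pathway list up to 3 genes past the threshold, from which a selection is given. A few genes that these rules name are not reported here. Rpl5, Rpl10a, Rpl12, Rps23, Rps24 and the libraries in which members varied together were chosen after their values were seen. The members and lists were chosen with earlier results of these data known. Pathway and marker lists are given by counts, without a set test; fibroblast, adipocyte, satellite cell, smooth muscle, erythroid and Schwann cell markers are in the closing section. Alternatives were RLE factors, library totals, no filter, DESeq2 1.42.0, the compared groups alone, a replicate block, leaving out the 4 libraries of lowest transcript-loss index, that index as a covariate, halved counts and leaving out each library; leaving out 3 libraries rich in intestinal transcripts was chosen after seeing the data.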

Additional observations from a re-analysis of the deposited data

Results flagged for a closer look

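Among 112 sets of values looked at (25 named members, the shares of both subunits and the Rpl3l to Rpl3 ratio, each in 4 groups), 5 held a sample whose gap to the nearest of the others exceeded the 95% limit of Dixon's test for its group size; chance alone gives about 1 in 20. KO_4C replicate 7 accounted for 4 of them, as the highest library of its group: Rpl4 was at 532 CPM there (next highest 308), Rps21 at 517 CPM (375), Rps3a at 142 CPM (86.7) and Rps10l1, a copy of Rps10, at 727 CPM (504). Rps13 was at 6.77 CPM in control_4C replicate 1, with the next at 4.58 CPM.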

How the results depend on the processing

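The counts of members called higher and lower were 8 and 2 for cold in control rats, 1 and 1 for cold in knockout rats, 2 and 2 for knockout against control at room temperature, and 0 in both directions at 4 °C and for the difference of the responses. Of all genes 20.7%, 13.8%, 2.61%, 0.0518% and 0.0259% passed in the same order. With RLE factors 4 were lower in the cold in control rats and 1 was lower in the knockout at 4 °C. Scaled by library totals, 17 were higher and 1 lower in the cold in control rats (2433 and 408 of all genes, against 1439 and 960 with TMM), 7 and 0 in knockout rats (1482 and 441 of all genes, against 868 and 728), and 0 were lower between genotypes at room temperature. DESeq2 gave 4 lower in the cold in control rats and 2 higher and 4 lower in knockout rats. In the knockout it gave 6 lower at room temperature and 3 lower at 4 °C. At 4 °C it called 3.76% of all genes, against 0.0518% with edgeR. For the difference it gave 1 lower and called 0.966% of all genes, against 0.0259% with edgeR. The compared groups alone gave 5 lower in control rats, 0 higher in knockout rats, and 0 and 0 between genotypes at room temperature. Without the 4 libraries of lowest transcript-loss index 4 were higher in control rats, 0 and 0 changed in knockout rats, 4 were lower in the knockout at room temperature and 3 were lower for the difference. The transcript-loss index as a covariate left 0 higher and 1 lower in control rats, 0 lower in knockout rats, 0 and 0 between genotypes at room temperature and 2 lower at 4 °C, and it turned the log2 fold change of Rpl27 in control rats to -0.094. Halved counts gave 4 lower in control rats, 3 lower in knockout rats, 4 lower in the knockout at room temperature and 1 at 4 °C. Without the 3 libraries rich in intestinal transcripts 5 were higher and 5 lower in control rats. The number of all genes called also moved with the setting, so a shift in these counts need not be particular to ribosomal protein genes. A count given here without the share of all genes does not show whether members passed more or less often than other genes. The cause of each shift was not tested. The filter left the counts within 1.5 times.

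With 1 library left out at a time, 3 to 12 were higher and 2 to 7 lower in control rats, 1 to 3 higher and 0 to 2 lower in knockout rats, 0 to 3 higher and 0 to 7 lower in the knockout at room temperature, 0 higher and 0 to 3 lower at 4 °C, and 0 higher and 0 to 2 lower for the difference. The calls among all genes in these fits are not given here, so the ranges do not show a swing particular to ribosomal protein genes. The Rpl3l to Rpl3 ratio kept its direction and its side of the threshold in the alternatives run on it. These were 2 added to each count, the paired sign-flip test, and leaving out the 4 libraries, the 3 libraries or each library. The transcript-loss index was not run as a covariate on the ratio. With 1 library left out the ratio differed by -0.87 to -0.72 in control rats and by -0.60 to -0.47 in knockout rats.

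With the replicate number as a block 14 members were higher and 6 lower in control rats (28.2%, beside 25.2% of all genes). In knockout rats 4 and 0 were (5.63%, beside 12.5%), and between genotypes at room temperature 0 and 0. Libraries of the same number shared a block whatever their group, so the blocks also tied knockout to control libraries. The 2 knockout libraries known by group only had blocks of their own. The sign-flip test of the paired ratio gave exact p = 0.0156 in each genotype, over 7 pairs, the smallest it allows. The numbers are not shown to pair animals: same-numbered libraries correlated between -0.22 and 0.19 in control rats (1 of 7 best with its own number) and between -0.00 and 0.15 in knockout rats (2 of 7). Members of a few CPM, such as Rps13, carry the most counting error.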

Other observations

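The proteins of the mitochondrial ribosome, which translates the respiratory chain subunits encoded in mitochondrial DNA, are a family of their own, and 70 of its 72 genes in the table were tested. In the cold 1 rose and 13 fell in control rats, beside 20.7% of all genes passing, and 3 rose and 2 fell in knockout rats, beside 13.8%. Mrpl42 fell in both, from 68.9 ± 3.92 to 43.3 ± 6.45 CPM in control rats (SD, n = 7 and 7; log2 fold change -0.67 ± 0.09, adjusted p = 8.88e-06, edgeR) and from 58.5 ± 5.26 to 46.5 ± 5.51 CPM in knockout rats (n = 9 and 9; -0.33 ± 0.08, adjusted p = 0.00508). Mrps15 also fell in both (-0.27 and -0.30). Mrps11 fell in control rats (-0.53 ± 0.10, adjusted p = 0.000343), and Mrpl10 rose there (0.42 ± 0.11, adjusted p = 0.005). Mrpl14, Mrpl45 and Mrpl18 rose in knockout rats (0.35, 0.31 and 0.29). Between genotypes 1 gene, Mrps6, was lower in the knockout at room temperature (-0.46 ± 0.11, adjusted p = 0.0162), and 0 passed in the cold or for the difference of the responses. The call of Mrps6 ended with the 2 room-temperature groups fitted alone, where 0 of all genes passed.

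Markers of other cells of the muscle are given as counts that passed in the cold, where 12.4% of all genes were higher and 8.28% lower in control rats, and 7.49% and 6.28% in knockout rats. Adipocyte markers gave 5 of 8 higher in control rats and 1 of 8 in knockout rats, smooth muscle and pericyte markers 4 and 0 of 8, and erythroid markers 3 and 1 of 4. Fibroblast markers gave 3 of 9 higher in control rats and 1 of 9 lower in knockout rats, Schwann cell markers 0 and 2 of 6 higher, and intestinal markers 3 and 0 of 9 higher. Satellite cell markers gave 2 of 5 lower in control rats and 0 in knockout rats, and of the 10 skeletal muscle markers 4 and 3 were lower.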
